A study of Mus musculus with 4 samples.

Results

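Genes of astrocytes, the star-shaped glia of the central nervous system, were followed here, 10 in all: Gfap, Vim, S100b, Aqp4, Slc1a2, Slc1a3, Gja1, Aldoc, Aldh1l1 and Sox9. They were taken by name, and every probe set (a group of short probes summarised as a single value) that the platform annotation gives to 1 of these symbols alone was used, which made 35 of the 45101 probe sets. Of these, 6 belong to the filament genes Gfap and Vim, 20 to the transporter and channel genes Aqp4, Slc1a2, Slc1a3 and Gja1, and 9 to the other 4 genes. A further probe set that lists a member together with another symbol was not used. The total RNA came from the brain, hindbrain and spinal cord of mice, and was hybridised as cDNA from a Nugen amplification kit (2 arrays, numbered 1 and 0) or as antisense RNA (aRNA) from T7-based amplification (2 arrays, numbered 1 and 0). The labels give no strain, age, sex or treatment, do not say what 1 and 0 mean, and leave unsaid how many animals were used or whether arrays share RNA. The p-values below therefore measure only the spread between these arrays. It may be technical, but aRNA array 0 also differs from the others in sex-linked transcripts, as given below.

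Astrocytes clear glutamate and potassium from the space around synapses, move water at vessel walls and share small molecules through gap junctions. After injury or inflammation many of them enlarge and build more intermediate filament, and GFAP is the protein most often used to see that state. Vimentin is a filament of the same family that immature and reactive astrocytes make, and that fibroblasts, endothelial cells and ependymal cells make too. White matter and spinal cord astrocytes are known to hold more GFAP than most grey matter astrocytes, and the Gfap transcript is spliced into several isoforms with different 3' ends.

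The results turn on Gfap and Vim, which did not move alike, so the sequence around the transcription start of each is shown. Both are from RefSeq on build GRCm38.p6, run 5′ to 3′ on the gene's own strand, and hold 250 bases before the start and 50 from it on. Capitals mark matches, on either strand, to the STAT palindrome TTCNNNGAA, the AP-1 site TGANTCA or the TATA box TATAAA.
Gfap, chr11:102897151-102897450, minus strand: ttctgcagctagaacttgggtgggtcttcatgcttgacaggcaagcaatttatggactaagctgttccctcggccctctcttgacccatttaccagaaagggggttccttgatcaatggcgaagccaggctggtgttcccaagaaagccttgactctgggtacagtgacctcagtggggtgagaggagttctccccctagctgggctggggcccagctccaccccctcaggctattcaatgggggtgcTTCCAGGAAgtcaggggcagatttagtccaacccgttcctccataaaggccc
Vim, chr2:13574061-13574360, plus strand: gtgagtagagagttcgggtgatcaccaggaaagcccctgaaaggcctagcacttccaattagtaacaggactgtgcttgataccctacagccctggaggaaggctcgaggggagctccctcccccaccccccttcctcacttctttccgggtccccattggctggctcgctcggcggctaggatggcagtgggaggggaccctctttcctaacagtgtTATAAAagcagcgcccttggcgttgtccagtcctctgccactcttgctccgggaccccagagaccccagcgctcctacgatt
The Gfap window held 1 STAT palindrome, starting 2 bases before the start, and neither of the other motifs. The Vim window held 1 TATA box, whose first base lies 32 bases before the start, and neither of the other motifs. Among 32851 promoter windows of this length, 8.30% held the STAT palindrome, 7.81% the AP-1 site and 13.6% the TATA box. Of the other members, promoter windows were in the table for Slc1a2, Aldh1l1, Gja1, S100b, Aldoc and Slc1a3. Among those, Slc1a3 held 1 STAT palindrome and 1 TATA box, 1 of the 2 Aldoc windows held 2, and Gja1 held 1 AP-1 site. A match describes letters only.

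Values are given as log2(intensity + 16), and differences are on that scale, so the change of a dim probe set is understated. Of the 35 probe sets, 25 passed the filter on dim probe sets and were tested, with at least 1 for each of the 10 genes, and 22 lay above background on all 4 arrays. Background is the 95th percentile of 27 control probe sets for Bacillus transcripts, 8.05 and 7.83 for cDNA (array 1, array 0) and 7.15 and 7.12 for aRNA. Transcripts of some of these genes were high on every array: S100b, a calcium-binding protein, Aldoc, an aldolase, and Gja1, the gap junction protein connexin 43, each had a probe set above 14 on all 4. Which cells they came from was not tested. One array stood apart before any comparison. The X-inactivation RNA Xist was lowest on aRNA array 0 at each of its 3 probe sets (8.55 there at 1436936_s_at, with 12.51 and 11.94 on the cDNA arrays and 15.44 on the other aRNA array), and the Y-linked gene Eif2s3y was highest there (13.12 at 1417210_at, against at most 7.92 elsewhere). Each contrast that uses aRNA array 0 therefore also compares RNA unlike in sex-linked transcripts, and values without that array are given where it decides a result.

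**Figure D1:**
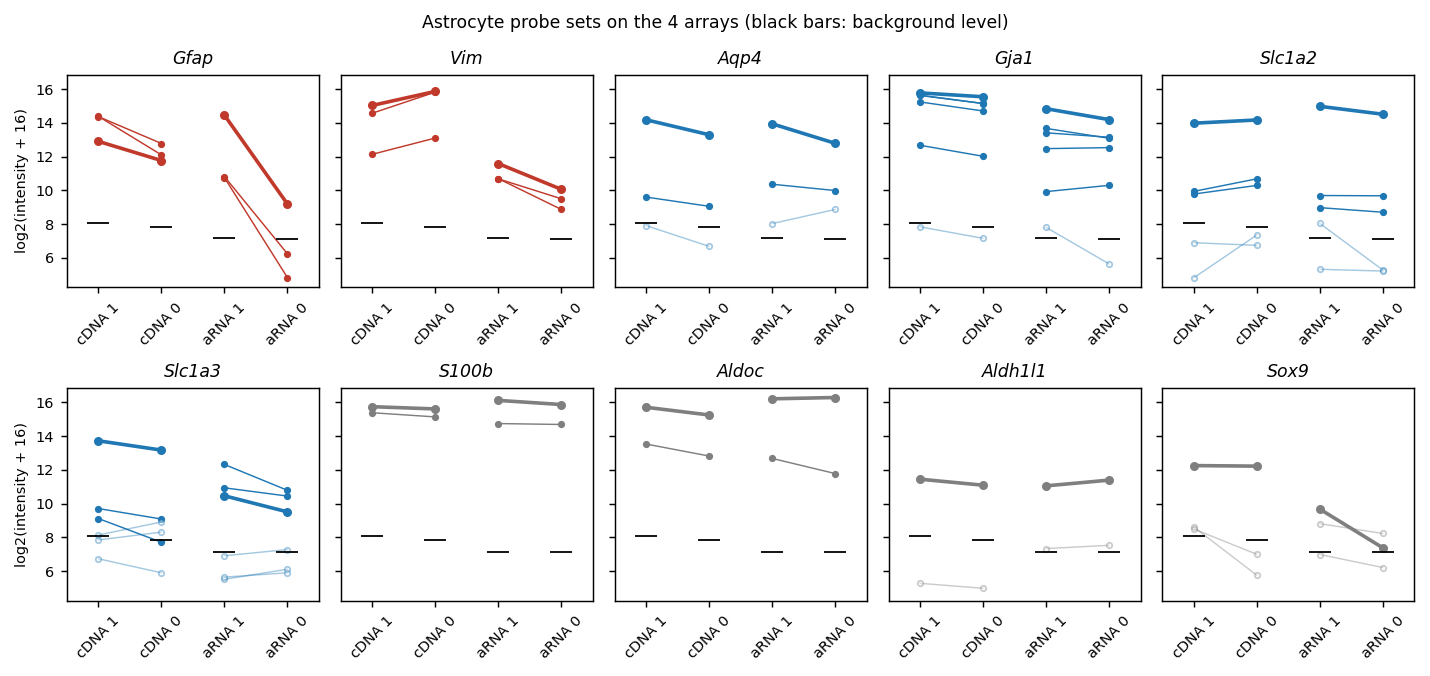
Log2(intensity + 16) of all 35 probe sets of the 10 genes on the 4 arrays; lines join the arrays numbered 1 and 0 of a preparation, the thick line is the probe set with the highest mean of a gene, open pale points were left out by the filter, and black bars mark background. Gfap drops far below its other values on aRNA array 0, Vim sits higher on the cDNA than on the aRNA arrays, and S100b and Aldh1l1 lie nearly level at their brightest probe sets.

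Gfap was higher on the arrays numbered 1 in both preparations at all 3 of its probe sets, and Vim was not. Gfap encodes the main intermediate filament of astrocytes. At 1426508_at it was 14.38 on cDNA array 1 against 12.10 on cDNA array 0, and 10.81 on aRNA array 1 against 6.23 on aRNA array 0, the last under background. At 1426509_s_at it was 14.37 against 12.78 on the cDNA arrays and 10.75 against 4.82 on the aRNA arrays, again with aRNA array 0 under background. At 1440142_s_at, which was above background throughout, it was 12.90 against 11.77 on cDNA and 14.46 against 9.19 on aRNA. The 3 probe sets thus share a direction in both preparations, and aRNA array 0 is the lowest array at each. The size was larger between the aRNA arrays, 39.6-fold at 1440142_s_at and at least 12.9-fold and 12.4-fold at the other probe sets, than between the cDNA arrays, 2.20-fold, 4.89-fold and 3.02-fold in the same order. With 1 array in each cell of the design this difference in size could not be tested.

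In the fit across all 22519 probe sets tested, with preparation as a block, 1426508_at was the only member called between the numbers (difference 3.43, SE 0.49, 95% interval 2.36 to 4.51, limma adjusted p = 0.034). Of all tested probe sets 0.0622% were called, 0.0533% in the higher direction, and 10 of the 25 members had an unadjusted p under 0.05, against 5.86% of all tested probe sets. The other Gfap probe sets gave 3.20 (SE 0.67, adjusted p = 0.265) and 3.76 (SE 0.73, adjusted p = 0.166) for 1440142_s_at and 1426509_s_at. The estimates of 1426508_at and 1426509_s_at use the value under background as measured. The call depended on the settings. It was lost with each array centred on its median (adjusted p = 0.0562), without probe sets named _x_at or _s_at (0.0621), without an intensity trend (0.924) and without the preparation block (1). Quantile normalisation instead called all 3 Gfap probe sets, the others with adjusted p = 0.000105 and 9.7e-05. With 1 array left out no test between the numbers is possible, and the differences within the remaining pair are those given above.

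Vim, the vimentin gene, went opposite ways in the preparations. Its brightest probe set, 1438118_x_at, was 15.04 on cDNA array 1 against 15.87 on cDNA array 0, and 11.59 on aRNA array 1 against 10.06 on aRNA array 0. The same pattern stood at 1456292_a_at (14.58 against 15.83 on cDNA, 10.69 against 8.87 on aRNA) and at 1450641_at (12.14 against 13.10, and 10.68 against 9.50). All 3 probe sets were therefore lower on number 1 among the cDNA arrays, by 0.83 to 1.25, and higher among the aRNA arrays, by 1.18 to 1.83. The median absolute difference of all tested probe sets was 0.37 in the cDNA pair and 0.33 in the aRNA pair. Averaged over the preparations Vim differed by 0.35 (95% interval −0.58 to 1.27), 0.29 and 0.11 at these probe sets, with adjusted p from 0.957 to 0.992.

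**Figure D2:**
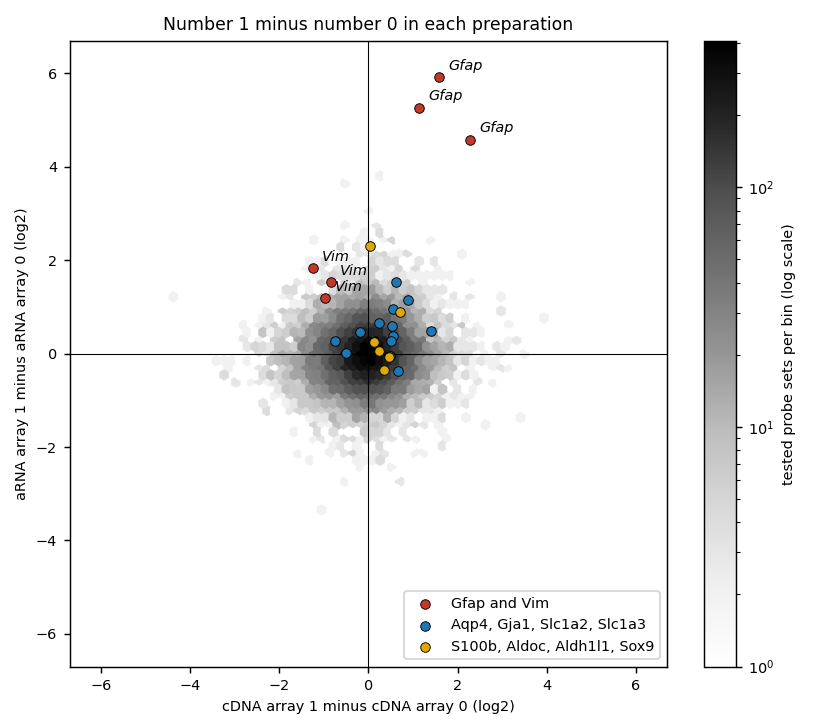
Difference between number 1 and number 0 in the cDNA pair (x axis) and in the aRNA pair (y axis), both log2; the grey cloud is all 22519 tested probe sets, and the coloured points are the 25 tested astrocyte probe sets. The 3 Gfap points, 2 of which use a value under background on aRNA array 0, lie far to the upper right, the 3 Vim points to the upper left, and the transporter and channel genes near the cloud, mostly to the upper right.

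Among the transporter and channel genes, none of 13 tested probe sets was called between the numbers, and 5 had an unadjusted p under 0.05. Aqp4 encodes aquaporin-4, the water channel of astrocyte endfeet. At 1434449_at it was 14.18 on cDNA array 1 against 13.30 on cDNA array 0, and 13.95 on aRNA array 1 against 12.79 on aRNA array 0. The groups by number do not overlap there, and the pairs differed by 0.89 and 1.16 (estimate 1.02, SE 0.24, limma unadjusted p 0.00118, adjusted p = 0.448). The dimmer probe set 1425382_a_at gave 9.60 against 9.05 and 10.36 against 9.99 (estimate 0.46, adjusted p = 0.94).

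Slc1a3, which encodes the glutamate transporter GLAST, was higher on number 1 in both preparations at its 3 tested probe sets. Of its probe sets left out by the filter, 1440491_at and 1426341_at were lower on number 1 in both pairs, and 1439072_at had opposite signs. The first was 8.14 against 8.91 on cDNA, and both its aRNA values lay under background. In the cDNA pair the tested probe sets differed by 0.55 at 1452031_at and 0.62 at 1443749_x_at. The difference was at least 2.43-fold at 1426340_at, which lay under background on cDNA array 0. In the aRNA pair the differences were 0.49 to 1.53. The estimates were 0.75, 1.08 and 0.95, and the adjusted p lay between 0.787 and 0.871. Slc1a2, the gene of the transporter GLT-1 that takes up most glutamate in the forebrain, did not share that pattern. At its brightest probe set, 1438194_at, it was 13.98 on cDNA array 1 against 14.17 on cDNA array 0, and 14.98 against 14.51 on the aRNA arrays (estimate 0.14, 95% interval −0.35 to 0.63). Its other tested probe sets gave −0.25 and −0.24. Gja1 gave estimates from 0.14 to 0.56 at 5 probe sets, of which 3 were higher on number 1 in both preparations (adjusted p from 0.784 to 0.982).

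Of the other genes, Sox9, a transcription factor that astrocytes keep into adulthood, was 12.26 on cDNA array 1 against 12.22 on cDNA array 0, but 9.67 on aRNA array 1 against 7.37 on aRNA array 0 at 1451538_at. At this probe set the number difference of 1.16 (adjusted p = 0.833) thus came from the aRNA pair alone, as the cDNA arrays differed by 0.03. Of the Sox9 probe sets left out by the filter, 1424950_at was at least 1.71-fold and 1433889_at at least 1.58-fold higher on cDNA array 1. Both lay under background on cDNA array 0. Aldoc at 1424714_at was higher on number 1 in both pairs, by 0.71 and 0.90 (estimate 0.80, adjusted p = 0.752), while its brighter probe set 1451461_a_at gave 0.46 and −0.08. S100b differed by 0.06 to 0.25 in the pairs over its 2 probe sets, and the 95% intervals of its estimates were −0.14 to 0.52 and −0.25 to 0.55. Aldh1l1, the folate enzyme used as a pan-astrocyte marker, gave 0.36 in the cDNA pair and −0.34 in the aRNA pair at 1424400_a_at (estimate 0.01, 95% interval −0.78 to 0.80).

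Over the 25 tested members, 15 were higher on number 1 in both preparations (60%), none was lower in both, and 10 had opposite signs. Of all tested probe sets, 24.9% were higher on number 1 in both. The members that were include 3 Gfap, no Vim, 2 Aqp4, 3 Gja1, no Slc1a2, 3 Slc1a3, 2 S100b, 1 Aldoc and 1 Sox9 probe sets, so they are not 15 separate genes. At least 2-fold higher in both preparations were 3 of 25 members, all of them Gfap, against 0.622% of tested probe sets. The median difference of the members was 0.38, against −0.01 for all tested probe sets. Being higher on number 1 in both preparations was not particular to these genes. With 1 probe set per gene, 7 of 10 tested neuron genes and 8 of 11 microglial genes were too. So were 4 of 10 oligodendrocyte, 2 of 4 ependyma and choroid plexus, 1 of 8 meninges and fibroblast and 0 of 4 endothelial genes.

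The filament genes were then set against the transporter and channel genes. For each gene the probe set with the highest mean was used, and each class was averaged on each array, as a description with no test. Between number 1 and number 0 the filament mean differed by 0.15 on the cDNA arrays and 3.40 on the aRNA arrays. The transporter and channel mean differed by 0.37 and 0.81. The contrast, filament minus transporter and channel, was therefore −0.22 in the cDNA pair and 2.59 in the aRNA pair, with a mean of 1.19 ± 1.99 (SD over the 2 preparations). The classes did not separate in the same direction in both preparations.

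Taken gene by gene, the contrast holds for Gfap and not for Vim. Each Gfap probe set exceeded the transporter and channel mean between the numbers in both preparations. The excess was 0.77 to 1.92 on cDNA and, on aRNA, 4.46 at 1440142_s_at and at least 2.89 and 2.82 at 1426508_at and 1426509_s_at, which lay under background on aRNA array 0. The Vim probe sets gave −1.20 to −1.62 against that mean on cDNA and 0.38 to 1.02 on aRNA. At the brightest probe set of each gene, both filament genes and 3 of the 4 transporter and channel genes were lowest on aRNA array 0. Slc1a2 was the exception there. Other probe sets of the transporter and channel genes differed in this. Slc1a3 was lowest on cDNA array 0 at 1443749_x_at (9.08), and Slc1a2 was lowest on aRNA array 0 at 1451627_a_at (8.70).

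**Figure D3:**
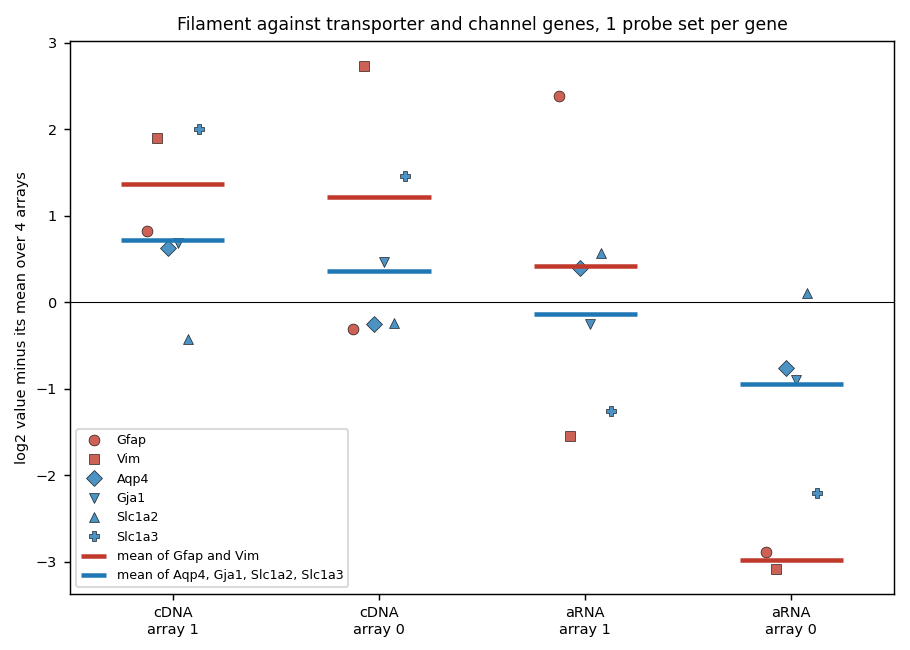
Log2 value of the brightest probe set of each filament (red) and transporter or channel (blue) gene minus its own mean over the 4 arrays, by array; bars are the means of the 2 classes. The red bar lies 0.64, 0.86 and 0.55 above the blue one on the first 3 arrays from the left, where on aRNA array 0 the difference is −2.04, and Gfap and Vim change places between the arrays.

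Between the preparations the astrocyte genes differed widely and in both directions. Of 25 tested members, 14 were called higher on cDNA, 4 were called lower there and 7 were not called. That is 72% called, against 43.2% of all tested probe sets (20.2% higher and 22.9% lower). The 14 include 5 Gja1 and 3 Vim probe sets, so they are not 14 separate genes. With 1 probe set per gene, 1 of 2 filament genes was higher on cDNA. Of 4 transporter and channel genes 2 were higher and 1 lower, and of the 4 other genes 1 was higher and 1 lower. Among brighter probe sets (filter at the 75th percentile) 14 of 18 members were called, and of all 11260 tested 2892 were higher and 3562 lower. The median difference of the members was 1.15, against −0.11 for all tested probe sets. In 22 of the 25 the cDNA arrays lay on one side of both aRNA arrays, which 73.8% of all tested probe sets did too.

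Vim was higher on cDNA at each of its probe sets. At 1438118_x_at it averaged 15.45 ± 0.59 on cDNA and 10.82 ± 1.08 on aRNA (SD, n = 2 each), and at 1456292_a_at 15.20 ± 0.88 and 9.78 ± 1.29. The differences were 4.63 (limma adjusted p = 0.000156), 5.42 (0.000194) and, at 1450641_at, 2.53 (0.00287). Both cDNA arrays were above both aRNA arrays at all 3 probe sets. Cells other than astrocytes also make vimentin, and genes of some of them moved the same way. Of 8 tested genes of meninges and fibroblasts 6 were higher and 1 lower on cDNA (of all tested probe sets, 20.2% and 22.9%). Their summed intensity was 35272 and 63563 for cDNA (array 1, array 0) against 24105 and 43327 for aRNA. Most of the aRNA sums was Dcn (log2 14.26 and 15.28), the gene that was lower on cDNA (−2.23). Of 4 tested endothelial genes 3 were higher (summed over all 6 on the array, 11195 and 19351 against 5498 and 5720), and of 4 tested ependyma and choroid plexus genes 3 were higher (over 7, 176073 and 104285 against 2283 and 2418). The 3 higher ependyma and choroid plexus genes were Ttr, Kcne2 and Kcnj13. Rsph1 was not called (0.42, limma adjusted p = 0.518). Most of the cDNA sums of that list was Ttr (log2 17.32 and 16.63). Kcne2 did not reach background with aRNA (6.14 on array 1, 6.34 on array 0), and Kcnj13 fell short of it on aRNA array 1 alone (6.29). Whether ependyma or choroid plexus gave these transcripts was not tested. No gene of the lists named here was under background on all arrays. Their part in the Vim result was not tested, and fewer cells of a type cannot be told apart from less RNA per cell. The amplification method also differed between the cDNA and the aRNA arrays, and its part cannot be told apart from these.

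Gfap differed between the preparations at 2 of its 3 probe sets. At 1426509_s_at it averaged 13.57 ± 1.13 on cDNA and 7.78 ± 4.19 on aRNA (SD, n = 2 each), at least 24.9-fold higher with the aRNA array under background raised to it (limma adjusted p = 0.0136). At 1426508_at it was at least 19.4-fold higher (adjusted p = 0.0156). Without aRNA array 0 the log2 differences were smaller, 2.83 (adjusted p = 0.00133) at 1426509_s_at and 2.43 (0.0141) at 1426508_at. At 1440142_s_at it averaged 12.33 ± 0.80 and 11.82 ± 3.73, a difference of 0.51 (95% interval −2.46 to 3.49, adjusted p = 0.776). That value depends on which aRNA array is used: without aRNA array 1 the probe set was called higher on cDNA (3.15, adjusted p = 0.000507), and without aRNA array 0 it was called lower (−2.12, adjusted p = 0.00227). The other probe sets' calls were lost without cDNA array 1 (adjusted p = 0.0818 and 0.0612) and without an intensity trend (0.0605 and 0.0562).

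**Figure D4:**
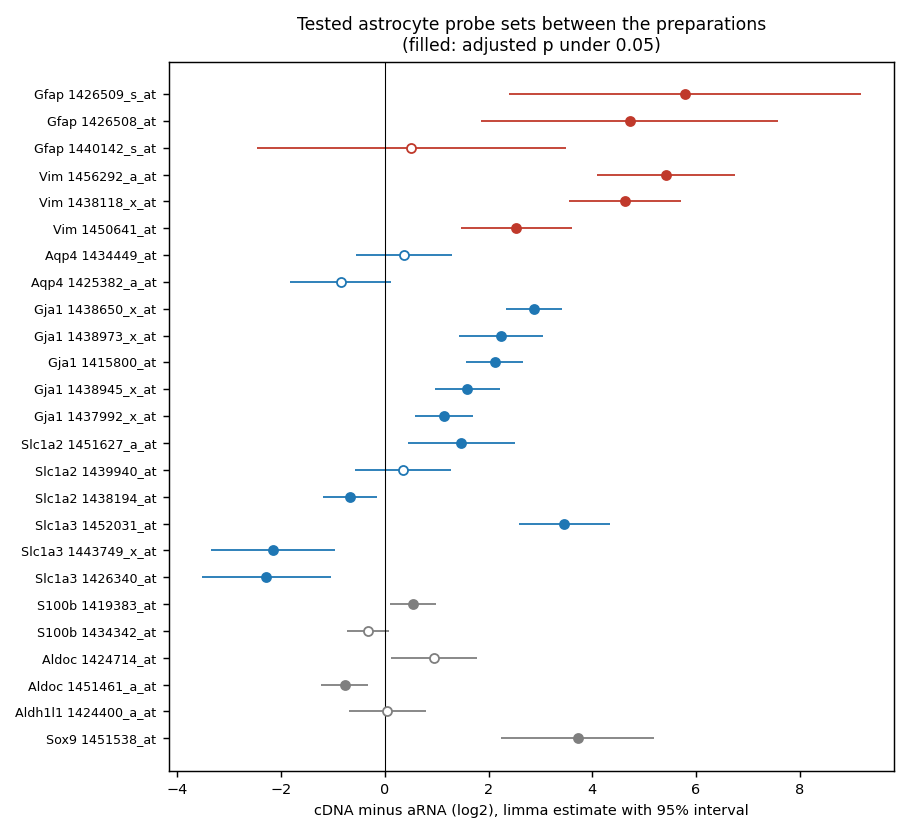
Difference between cDNA and aRNA (log2, limma estimate with its 95% interval) for the 25 tested astrocyte probe sets, filled where adjusted p is under 0.05; red is filament, blue transporter and channel, grey other. Vim and Gja1 lie to the right at every probe set, while Slc1a3 has 1 probe set at 3.46 and others at −2.16 and −2.28 (the last with 1 cDNA array under background).

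Gja1 differed in 1 direction throughout. All 5 tested probe sets were called higher on cDNA, by 1.15 to 2.89 (adjusted p from 6.13e-05 to 0.0055). At 1415800_at it was 15.65 and 15.15 on the cDNA arrays, against 13.41 and 13.15 on the aRNA arrays. Of the related connexin genes, Gjb2, a connexin of meninges and also of glia, was higher on cDNA by 5.07 (adjusted p = 4.49e-05), and Gjd2, the neuronal connexin 36, by 1.27 (0.0132). Gjb6, connexin 30, the other gap junction protein of astrocytes, differed by 0.03 (adjusted p = 0.94).

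Slc1a3 and Slc1a2 were called in both directions at different probe sets. Slc1a3 averaged 13.45 ± 0.39 on cDNA and 9.99 ± 0.67 on aRNA at 1452031_at (SD, n = 2 each), a difference of 3.46 (adjusted p = 0.000227). At 1443749_x_at it averaged 9.39 ± 0.44 on cDNA and 11.56 ± 1.08 on aRNA, a difference of −2.16 (adjusted p = 0.0103), and at 1426340_at, under background on cDNA array 0, it was at least 4.66-fold higher on aRNA (fitted difference −2.28, adjusted p = 0.00951). Without aRNA array 1 neither lower call held (adjusted p = 0.0994 and 0.0661). Slc1a2 was 0.67 lower on cDNA at 1438194_at (adjusted p = 0.0432) and 1.47 higher at 1451627_a_at (0.0287), with 0.35 at 1439940_at (0.517). Both Slc1a2 calls were lost without the filter (adjusted p = 0.0786 and 0.0596) and with single arrays left out. The direction of either transporter between the preparations therefore depends on the probe set read.

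Of the other glutamate transporters, Slc1a1 (EAAC1, a transporter of neurons), Slc1a4 (a transporter of small neutral amino acids in the same family) and Slc1a6 (EAAT4, of Purkinje cells) were all higher on cDNA, by 1.76, 3.49 and 2.31 (adjusted p from 3.04e-05 to 0.00513). Aqp4 was not called between the preparations: 1434449_at averaged 13.74 ± 0.63 on cDNA and 13.37 ± 0.82 on aRNA (SD, n = 2 each), and 1425382_a_at differed by −0.85 (adjusted p = 0.142). Sox9 was 3.72 higher on cDNA at 1451538_at (adjusted p = 0.00211). Its untested probe sets, each under background on cDNA array 0, went both ways. They averaged 7.17 on cDNA and 8.52 on aRNA at 1424950_at, and 7.74 and 6.59 at 1433889_at. S100b gave −0.32 (adjusted p = 0.184) and 0.55 (0.0478) at its 2 probe sets, Aldoc −0.77 (0.0136) and 0.95 (0.0654), and Aldh1l1 0.05 (95% interval −0.70 to 0.79). Leaving out cDNA array 0 (adjusted p = 0.103) or the intensity trend (0.0974) ended the Aldoc call. The S100b call was lost when any 1 array was left out (adjusted p from 0.077 to 0.241).

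The contrast of filament with transporter and channel genes was 1.49 between the preparations, cDNA minus aRNA, against a pooled SD of 1.30. It was 0.20 without aRNA array 0 and 2.79 without aRNA array 1. It was 3.75 without probe sets named _x_at or _s_at, and 3.56 as a mean over probe sets whose mean level was above the mean background. Both use Gfap probe sets under background on aRNA array 0. Over probe sets above background on all 4 arrays it was 1.66, an alternative chosen after seeing the data.

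The 10 probe sets left out by the filter lay between 4.82 and 8.91 on the 4 arrays, and none was above background on all of them. They are 3 of Slc1a3, 2 each of Slc1a2 and Sox9, and 1 each of Aldh1l1, Aqp4 and Gja1. In a fit without the filter, 1 of them was called, Slc1a3 at 1440491_at, higher on cDNA by at least 2.62-fold with either aRNA value below background, and none between the numbers.

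Other genes of reactive astrocytes were read from fixed lists, with 1 probe set per gene. None of the genes tested in the lists for pan-reactive (8 genes), A1 (9) and A2 (5) astrocytes was called between the numbers. An unadjusted p under 0.05 (5.86% of all tested probe sets) was found for 4, 1 and 2 genes of these lists, and in the pan-reactive list 4 of 8 were higher on number 1 in both preparations. Cd44, the hyaluronan receptor, was 9.38 against 7.50 in the cDNA pair and 11.56 against 8.56 in the aRNA pair (2.44, adjusted p = 0.285), with cDNA array 0 under background. Lcn2, the iron-binding lipocalin that reactive astrocytes secrete, was 10.81 against 9.35 and 10.49 against 8.24 (1.86, adjusted p = 0.533). Osmr, the oncostatin M receptor, gave 1.42 (0.833) and Serpina3n, a serine protease inhibitor, 0.57 (0.843). The medians were 0.43 for pan-reactive, 0.21 for A1 and 0.37 for A2 genes, and within the cDNA pair alone they were −0.17, −0.95 and −0.20.

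In the A1 list the lowest p belonged to Fbln5, an elastic fibre protein, at −2.04 (adjusted p = 0.693), followed by Fkbp5 (0.54), Amigo2 (−1.14) and Srgn (0.83). Amigo2 and Srgn had opposite signs in the pairs (cDNA −2.45 and −0.63, aRNA 0.16 and 2.29). In the A2 list the lowest p belonged to S100a10 (0.37, adjusted p = 0.829), then Cd14 (1.40), Emp1 (1.66) and Tm4sf1 (−0.57). Emp1 and Tm4sf1 had opposite signs too (cDNA −0.46 and −1.86, aRNA 3.79 and 0.73), with Emp1 under background on aRNA array 0. Cd14 gave 0.11 in the cDNA pair and 2.69 in the aRNA pair. Signals of the interleukin-6 family reach Gfap through STAT3 in reactive astrocytes. Of 10 genes of the STAT3 list none was called between the numbers and 2 had an unadjusted p under 0.05. All 10 estimates were above 0 and 8 were higher on number 1 in both preparations (median 0.57). The median was 0.19 in the cDNA pair and 0.91 in the aRNA pair, which uses aRNA array 0. The lowest p belonged to Socs3, the feedback inhibitor of this pathway (1.57, adjusted p = 0.757), then Osmr (also in the pan-reactive list), Stat3 (0.70) and Tgfbr2 (0.66). In that order these genes differed by 0.20, 0.33, 0.22 and −0.001 in the cDNA pair. In the aRNA pair they differed by 2.94, 2.51, 1.18 and 1.32.

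Among 28 tested homeostatic genes, 17 were higher on number 1 in both preparations, none was called, 6 had an unadjusted p under 0.05, and the median was 0.29. Kcnj10, the potassium channel Kir4.1 of astrocytes, had the lowest p: it was 13.45 against 12.60 in the cDNA pair and 15.89 against 13.82 in the aRNA pair (1.46, adjusted p = 0.166). Cst3 (cystatin C) gave 0.48, Atp1b2 (a sodium pump subunit) 0.68 and Glul (glutamine synthetase) 0.34. Of 13 transcription factor and radial glia genes none was called, 1 had an unadjusted p under 0.05 and 3 were higher on number 1 in both (median 0.09), with Fabp7, a fatty acid-binding protein of radial glia, at 0.83 (adjusted p = 0.801), Id2 at 0.49, Hes5 at −1.05 and Nfia at 0.19. Of 10 other intermediate filament and partner genes none was called, none had an unadjusted p under 0.05 (median 0.27), and the neurofilament genes Nefh (0.28) and Nefl (0.23), Plec (0.40) and Ina (0.36) had the lowest p. The 3 tested connexin genes gave estimates under 0, Gjd2 −0.69 (adjusted p = 0.77), Gjb6 −0.49 and Gjb2 −0.56, and Gjb6 is also in the homeostatic list. The glutamate transporter genes gave −0.60 for Slc1a6, 0.25 for Slc1a1 and 0.05 for Slc1a4, and the aquaporin gene Aqp11 gave 0.56.

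Microglia are the other cells that change state with reactive astrocytes, and some of their genes were higher on number 1, as Gfap was. Of 11 tested microglial genes 4 were called higher on number 1 and none lower, where 0.0533% of all tested probe sets were called higher. The called genes were Ctss (1.75, limma adjusted p = 0.00902), Ly86 (2.80, 0.00902), C1qa (2.70, 0.0175) and Tyrobp (2.74, 0.022). Like the Gfap call, these calls depended on the settings. Without an intensity trend or without the preparation block, no probe set of the whole series was called between the numbers. The median of the 11 was 1.72. The summed intensity of the 13 on the array was 136178 and 150551 on cDNA array 1 and aRNA array 1, against 67061 and 28778 on cDNA array 0 and aRNA array 0, and none was under background on all arrays. Of the 11, 8 were higher on number 1 in both preparations, as Gfap was and Vim was not. The others were Cx3cr1 (−0.68 in the cDNA pair, 1.74 in the aRNA pair), P2ry12 (0.96 and −0.21) and Tmem119 (−0.75 and 0.85). Neuron and oligodendrocyte genes had no calls and 1 gene each with an unadjusted p under 0.05, with medians of 0.15 over 10 and 0.08 over 10. Endothelial, meninges and fibroblast, and ependyma and choroid plexus genes had no calls either, and 0 of 4, 2 of 8 and 1 of 4 had an unadjusted p under 0.05. Their medians were −0.62, −0.52 and 0.81, and within the cDNA pair, where Vim was lower on number 1, they were −0.63, −0.94 and 1.64. The part of other cell types in the Gfap values was not tested.

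**Figure D5:**
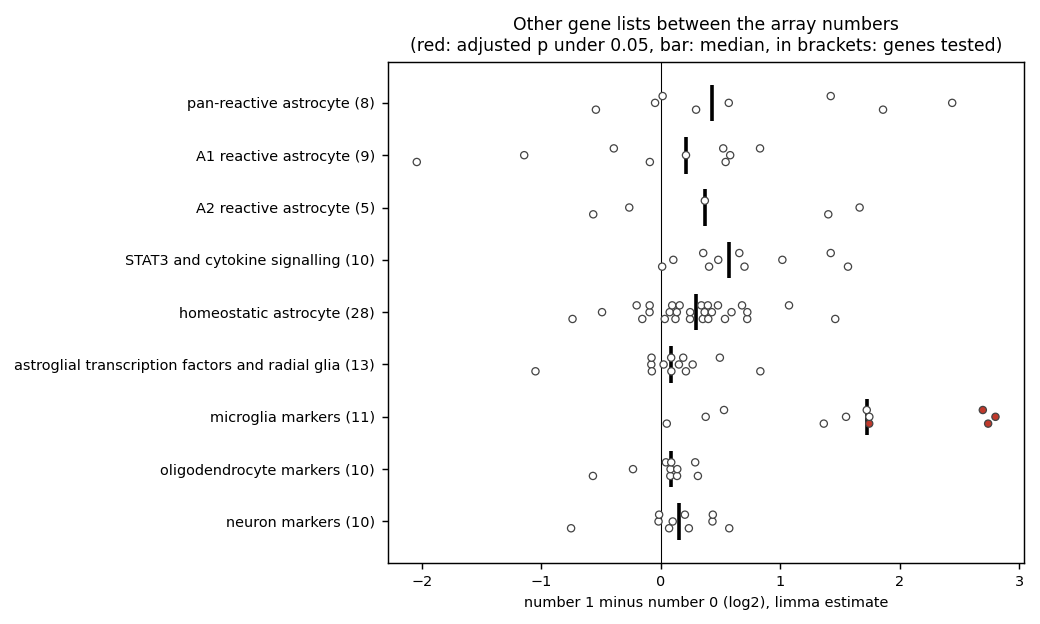
Number 1 minus number 0 (log2, limma estimate) for each tested gene of 9 lists, 1 probe set per gene, with the list median as a bar and called genes in red. The 4 called genes are all microglial, and the medians of the 3 reactive astrocyte lists lie between 0.21 and 0.43.

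Between the preparations the same lists were split, where 20.2% of all tested probe sets were called higher on cDNA and 22.9% lower. Of 8 pan-reactive genes 1 was higher on cDNA (Cp, ceruloplasmin, 1.89, adjusted p = 0.00408) and none lower. Of 9 A1 genes 1 was higher (Serping1, the C1 inhibitor, 3.15, adjusted p = 0.00037) and 1 lower (Fkbp5, −1.48, 0.00708), and of 5 A2 genes 1 was higher (Emp1, 3.23, adjusted p = 0.0322, under background on aRNA array 0) and 1 lower (Sphk1, −1.48, 0.0147). Of 28 homeostatic genes 5 were higher and 7 lower with a median of −0.02, among them Ttyh1 (3.0), Slco1c1 (1.97), Apoe (−1.77) and Mt3 (−3.33). In the STAT3 list 1 was higher (Jak2, 1.90) and 4 lower, with Stat3 at −3.64, Il6st at −2.39 and Jak1 at −1.24. Of 13 transcription factor and radial glia genes 2 were higher (Gli3, 2.91, and Septin4, 0.98) and 2 lower (Fabp7, −1.94, and Hopx, −1.54). Of 10 intermediate filament and partner genes 4 were higher and none lower, Lmna (3.17), Ina (1.70), Plec (0.97) and Lmnb1 (1.23).

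The tested probe sets of other genes whose pattern over the 4 arrays lay nearest to that of Gfap at 1440142_s_at were Npy (neuropeptide Y, distance 0.59), Cd52 (a surface glycoprotein of leukocytes, 0.70) and Tent5c (1.07). The measure is the Euclidean distance between log2 values centred on their mean over the 4 arrays. Npy was 11.58 against 9.72 in the cDNA pair and 13.10 against 7.46 in the aRNA pair. The other Gfap probe sets lay farther away, at 4.31 and 5.31, so these neighbours belong to 1 probe set of Gfap.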

How the data were processed

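The data are 4 single-colour Affymetrix mouse arrays with 1 value per probe set and array. The authors deposited linear intensity. The summarising software is not named in the sources used here. Their 2% trimmed mean was 2500.02 on each array, so the deposited intensity values were already scaled, and they were not normalised again. Log2(intensity + 16) was computed from the deposited intensity. The 64 control probe sets were left out, and the 22519 probe sets with a mean at or above the median (8.38) were tested with limma 3.58.1 in R 4.3.3 (lmFit, eBayes with an intensity trend, Benjamini-Hochberg over all tested, threshold 0.05).

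The preparations were compared as cDNA minus aRNA. The numbers were compared with preparation as a block, which leaves 1 residual degree of freedom. The script was tested on simulated data. The number of arrays limits the precision of every value. Symbols came from the platform annotation, updated through a RefSeq gene table for GRCm38.p6 (34754 of 34958 probe sets with 1 symbol found). Named genes were all member probe sets and, of each other list, up to 4 genes with the lowest p. A bound raises values under background to it on the lower side. The members and lists were chosen with earlier results of these data known. Alternatives changed scaling, pseudocount, filter, probe set class, trend, blocks and arrays. Figures used matplotlib 3.10.9.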

Additional observations from a re-analysis of the deposited data

Results flagged for a closer look

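Vim moved in opposite directions between the numbers in the 2 preparations, at each of its probe sets by more than the median absolute difference of the pair. The cDNA pair gave −0.83 at 1438118_x_at, −1.25 at 1456292_a_at and −0.96 at 1450641_at, and the aRNA pair 1.53, 1.83 and 1.18. Gja1 did the same in the other direction at 1438973_x_at, with 0.65 in the cDNA pair and −0.37 in the aRNA pair, while 3 other tested Gja1 probe sets were higher on number 1 in both. With 1 array per preparation and number these differences between the preparations were not tested.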

How the results depend on the processing

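The count of members called between the preparations, 18, ranged from 13 to 19 under other scalings, pseudocounts, filters, trend settings and the block, and from 14 to 17 with 1 array left out. It was 11 of the 17 tested when probe sets with _x_at or _s_at names were dropped. The labels do not say that a number marks shared RNA, and the number 1 minus 0 differences of the preparations correlated at 0.0412 over the tested probe sets. The arrays numbered 0 were unlike in sex-linked transcripts. Xist was 12.33 on cDNA and 5.25 on aRNA at 1427262_at, and Eif2s3y 7.92 and 13.12 at 1417210_at. The block below therefore does not pair shared RNA for number 0. With the number as a replicate block 19 were called, Aldoc 1424714_at being the addition (adjusted p = 0.0158), and no other member's call changed. The count between the numbers, 1, became 0 with median centring, without _x_at and _s_at probe sets, without a trend or without the preparation block, 2 with the filter at the 75th percentile, and 3 with quantile normalisation or no filter. All of those extra calls were Gfap probe sets.

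The filament contrast between the numbers ranged from −0.22 to 2.59 with 1 array left out, where it is the value of the other pair. Between the preparations it was 3.75 without _x_at and _s_at probe sets and 3.56 over probe sets whose mean was above background (1.66 over those above it on all 4 arrays, chosen after seeing the data), and from 0.20 to 2.79 with 1 array left out. Between the numbers, 1 array left out gives the other pair's value, and the sign then changed for the members whose pairs have opposite signs, among them Vim 1438118_x_at (−0.83), Slc1a2 1438194_at (−0.19), Aldoc 1451461_a_at (−0.08) and Gja1 1438973_x_at (−0.37). Other changes of sign were those of Aldh1l1 1424400_a_at with median centring (−0.10 between the preparations and −0.0265 between the numbers) and, with 1 array left out, of Gfap 1440142_s_at (from −2.12 to 3.15), Aldh1l1 1424400_a_at (from −0.13 to 0.23) and Aqp4 1434449_at (from −0.21 to 0.95) between the preparations. Median centring shifts all tested probe sets between the preparations from a median of −0.11 to −0.25. Signal near background limits Gfap on aRNA array 0, Slc1a3 1426340_at on cDNA array 0 and the 10 untested members. With 1 array left out no test between the numbers could be fitted, as no residual degree of freedom is left.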
